A study of Mus musculus with 16 samples.

Results

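The ErbB family comprises 4 receptor genes and 6 of their ligand genes here, Egfr, Erbb2, Erbb3, Erbb4, Egf, Tgfa, Hbegf, Btc, Ereg and Nrg1. They were chosen by gene symbol, and every probe set carrying a single one of these symbols was taken, which gave 21 probe sets of 34945 with a single symbol, or 10 genes of 18193. A probe set is a group of short oligonucleotides on an Affymetrix array that together report a transcript. All samples were mammary glands of female FVB/N mice. Every mouse, grouped ones included, was homozygous for a transgene in which the C3(1) fragment of a rat promoter, that of the prostatic steroid binding protein gene, drives SV40 large T antigen. After weaning at 21 days the mice lived alone (isolated) or with other females (grouped), and the thoracic gland was taken at 15 or 20 weeks of age, in estrus and at a fixed time of the dark phase. T antigen inactivates the tumour suppressors p53 and RB, and mice of this line develop mammary tumours. Each of the 4 groups had 4 arrays, and the labels number the arrays without stating that each came from its own mouse, so the tests weigh differences against the scatter among these arrays, which may be technical. The series asked how housing was associated with expression in the gland, here for a growth factor system of that organ.

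ErbB receptors are tyrosine kinases of the cell surface that pair up when a ligand binds and pass the signal to the RAS-ERK and PI3K-AKT pathways. Egf, Tgfa, Hbegf, Btc and Ereg encode ligands made as membrane-bound precursors and released by proteases, and they bind the EGF receptor, with Hbegf, Btc and Ereg products binding ErbB4 as well. Nrg1 encodes neuregulin 1, which binds ErbB3 and ErbB4. ErbB2 binds no known ligand and serves as a partner, and ErbB3 has little kinase activity of its own. In the mammary gland the family takes part in duct growth, lobule formation and milk production, and Erbb2 is a known oncogene there.

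Values were log2 expression levels. The probe sets of a gene are numbered here from its brightest, probe set 1, and levels of different probe sets were not set against each other. The labelled tissue was checked on epithelial and fat markers, which were bright. The keratin gene Krt8 lay between 11.81 and 12.67 and the adipokine gene Adipoq between 12.09 and 14.3 over the 16 arrays. Array medians over the tested probe sets were 8.37 to 8.42 at 15 weeks and 8.59 to 8.63 at 20 weeks, a shift of 0.22 on the log2 scale. Age and anything else that differed between the arrays of both ages cannot be told apart, so each age difference is given relative to the array median. In whole tissue, fewer cells of a type and less RNA per cell cannot be told apart either. Several arrays stood apart in marker lists: grouped replicate 3 at 20 weeks had a macrophage mean of 11.37 against 10.08 to 10.56 in the other grouped arrays of that age, grouped replicate 1 at 15 weeks a lymphocyte mean of 8.96 against 7.46 to 7.55, and isolated replicate 3 at 20 weeks a lymphocyte mean of 8.46 against 7.49 to 7.56.

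Of the 21 probe sets, 4 lay under the lower quartile of their array (6.76 to 6.79 at 15 weeks, 6.98 to 7.035 at 20 weeks) on all 16 arrays and were not shown to exceed background. They were the sole probe sets of Erbb4 (4.47 to 4.86) and Nrg1 (5.44 to 5.71), probe set 2 of Btc (6.08 to 6.67) and probe set 7 of Egfr (5.98 to 6.4). Ereg was under the quartile on 13 of 16 arrays, the 3 exceptions being isolated arrays at 20 weeks. For reference, 9 probe sets of 3 Y-linked genes, which female mice lack, had a median of 4.93 and reached 8.03. The other 16 probe sets, which cover Egfr, Erbb2, Erbb3, Egf, Tgfa, Hbegf and Btc, were above the quartile on every array.

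Promoters are shown for 3 genes with an age call, 1 that rose in both housings (Tgfa), 1 that rose in grouped mice (Erbb2) and 1 that fell in isolated mice (Egf). They come from RefSeq on build GRCm38.p6, which matched 6 of the 10 genes by symbol, and each runs 5′ to 3′ from 250 bases before the start of the gene to 50 after it. Capitals mark GC boxes (GGGCGG) and CCAAT boxes found on either strand (CCGCCC is the GC box read on the opposite one), which 35.7% and 37.4% of 32851 promoters of this length hold.
Tgfa (chr6:86194972-86195271, plus strand): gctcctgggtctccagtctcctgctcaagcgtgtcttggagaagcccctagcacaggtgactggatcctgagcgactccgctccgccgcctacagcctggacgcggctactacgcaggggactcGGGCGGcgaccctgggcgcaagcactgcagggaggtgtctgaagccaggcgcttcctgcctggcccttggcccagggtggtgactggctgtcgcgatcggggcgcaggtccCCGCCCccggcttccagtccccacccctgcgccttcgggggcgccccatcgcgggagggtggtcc
Erbb2 (chr11:98412234-98412533, plus strand): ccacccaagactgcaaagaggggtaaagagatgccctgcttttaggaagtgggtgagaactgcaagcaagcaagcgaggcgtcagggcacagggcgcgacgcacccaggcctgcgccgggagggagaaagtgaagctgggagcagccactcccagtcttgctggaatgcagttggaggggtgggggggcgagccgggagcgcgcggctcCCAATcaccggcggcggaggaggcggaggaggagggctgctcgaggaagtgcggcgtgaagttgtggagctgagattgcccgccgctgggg
Egf (chr3:129755273-129755572, minus strand): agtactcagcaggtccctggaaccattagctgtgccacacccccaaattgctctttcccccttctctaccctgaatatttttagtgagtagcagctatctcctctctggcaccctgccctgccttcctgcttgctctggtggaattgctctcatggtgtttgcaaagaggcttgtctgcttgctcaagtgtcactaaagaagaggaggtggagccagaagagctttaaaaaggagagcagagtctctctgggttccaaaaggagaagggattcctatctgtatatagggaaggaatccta
The Egf window belongs to the more upstream of 2 listed starts. The Tgfa window held 2 GC boxes and the Erbb2 window 1 CCAAT box. None of the windows held TATAAA (13.6% of all promoters), the AP-1 motif TGANTCA (7.81%) or the CRE motif TGACGTCA (1.79%), and the Egf window held none of the 5 motifs. These are matches of letters and say nothing of binding.

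**Figure D1:**
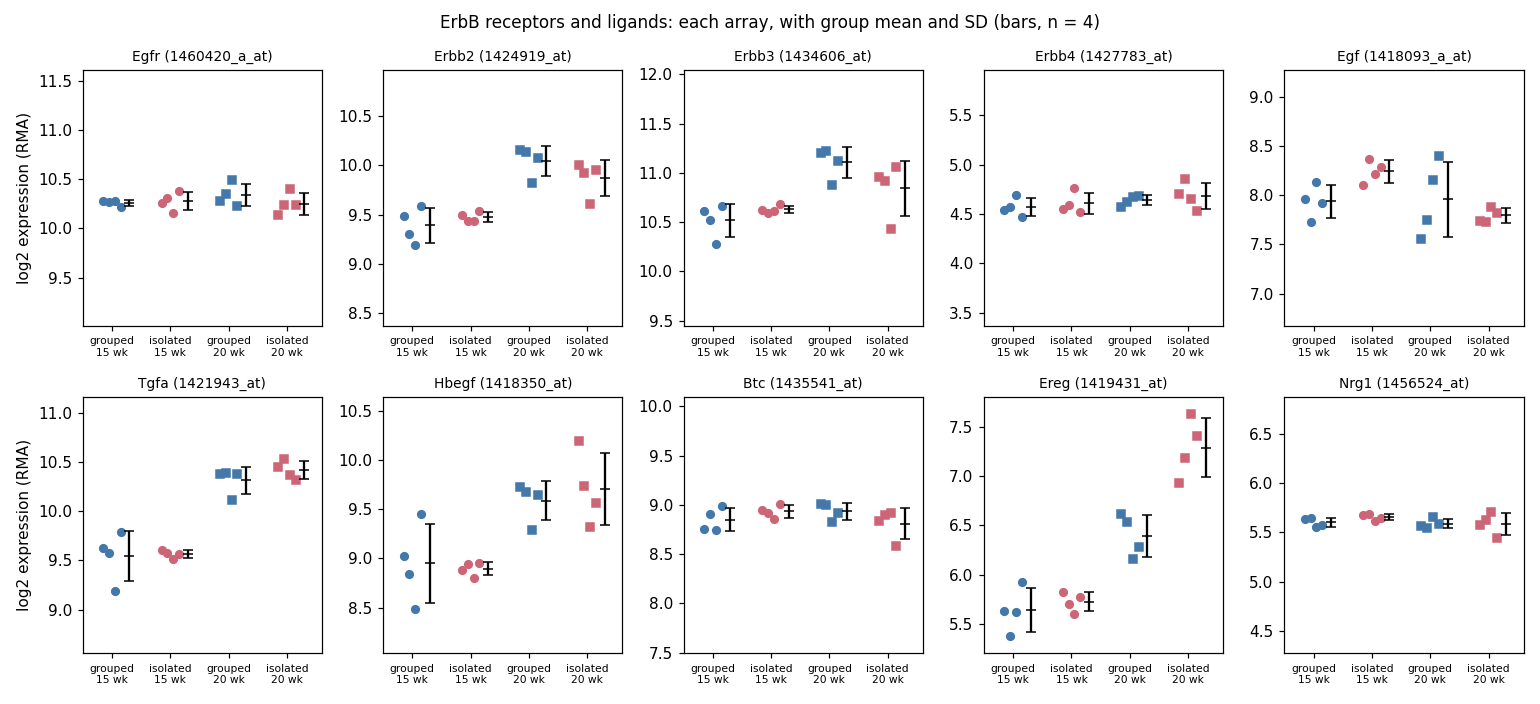
Log2 expression of the brightest probe set of each of the 10 genes on each array, with the group mean and SD (n = 4) beside the points. All panels span the same number of log2 units. Ereg is highest in isolated arrays at 20 weeks (6.93 to 7.63), while Erbb4 and Nrg1 stay within narrow bands.

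Ereg, which encodes epiregulin, had the widest range over the 16 arrays among the 21 probe sets, 2.26 on the log2 scale. At 20 weeks the isolated arrays read 6.93, 7.19, 7.63 and 7.41 and the grouped arrays 6.61, 6.53, 6.15 and 6.28 (log2, replicates 1 to 4). Every isolated array lay above every grouped array, and means were 7.29 ± 0.3 (SD, n = 4) and 6.39 ± 0.21. The difference was 0.90 on the log2 scale (SE 0.15), or 1.86-fold, and had rank 25 by p among 34945 probe sets. Groups that do not overlap fix the p of an exact permutation test over these 8 arrays at its smallest value, 0.0286 (two-sided). It therefore adds nothing to the separation, which 4.15% of all probe sets had in this comparison. The difference did not pass adjustment over all probe sets (limma, adjusted p = 0.267). In the fit with all 16 arrays, which takes its spread from both ages, it passed (adjusted p = 0.0355), the single pass among the 14 alternatives run for it, whose adjusted p reached 0.78. Because all 4 grouped levels and 1 of the isolated levels lay under the quartile of their arrays, this fold was measured near background.

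At 15 weeks Ereg did not separate the housing groups. The grouped arrays read 5.63, 5.38, 5.63 and 5.93 and the isolated arrays 5.83, 5.7, 5.6 and 5.77 (log2). The groups overlapped (difference 0.08, SE 0.1, adjusted p = 0.777). The housing difference at 20 weeks exceeded that at 15 weeks by 0.81 (SE 0.2), which did not pass either (interaction in limma, adjusted p = 0.162).

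Epiregulin is made by macrophages and epithelial cells among others, and several cell type lists had most differences of one sign with housing at 20 weeks, without passing the test. All 11 measured macrophage markers had a positive difference (median 0.57) and none passed. The macrophage list mean was 10.08 to 11.37 in grouped arrays and 10.65 to 11.41 in isolated ones at 20 weeks, and 10.78 to 11.00 and 10.31 to 10.72 at 15 weeks. Grouped replicate 3 at 20 weeks, with a macrophage mean of 11.37, had the lowest Ereg level of its age, 6.15. Isolated replicate 1 had a macrophage mean of 10.65 and an Ereg level of 6.93, above every grouped array. Among the isolated arrays of that age it had the lowest of both values, and replicate 3 the highest of both (11.41 and 7.63). Replicates 2 and 4 lay between them, in opposite orders (11.35 and 11.14 against 7.19 and 7.41). Without isolated replicate 1 the Ereg difference was 1.02, and without grouped replicate 3 it was 0.82. The 11 measured fibroblast and matrix markers also had positive differences (median 0.33), and the 9 adipocyte markers negative ones (median -0.8). All 8 lymphocyte markers had positive differences (median 0.19). All 8 endothelial markers (median -0.34) and all 12 skeletal muscle markers (median -0.46) had negative ones. Of the epithelial markers, all 15 luminal ones (median -0.12) and 8 of 10 basal and myoepithelial ones (median -0.25) had negative differences. The part of these cell types in the Ereg difference was not tested.

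**Figure D2:**
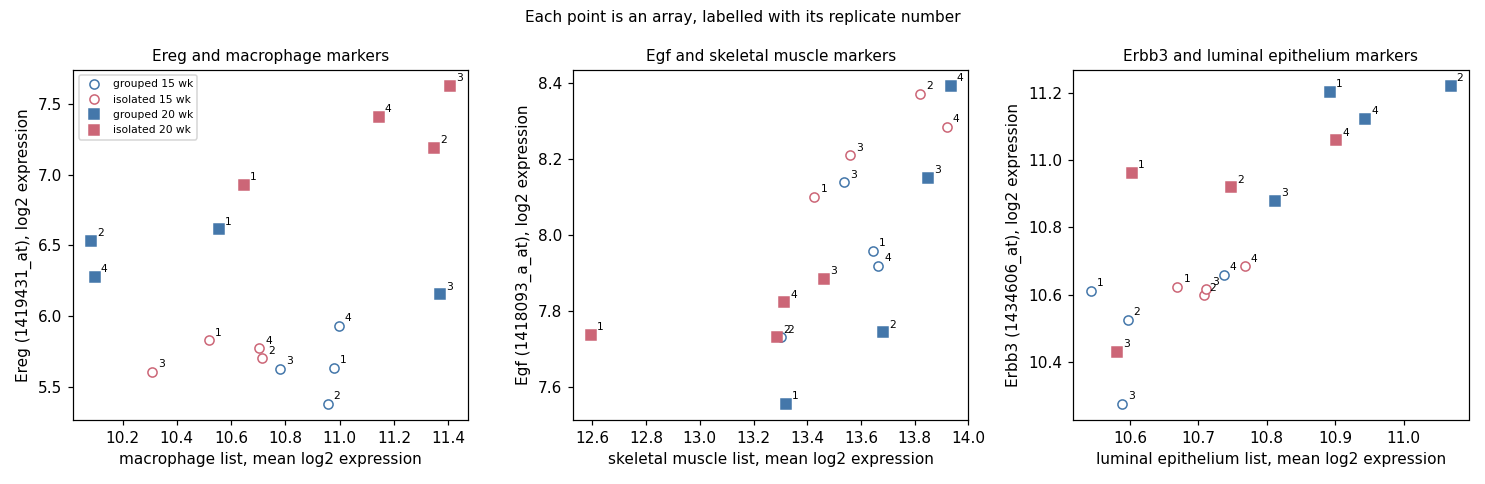
Log2 level of Ereg, Egf and Erbb3 on each array (vertical axes) against the mean log2 level of macrophage, skeletal muscle and luminal epithelial marker lists (horizontal axes); numbers are replicates. Grouped replicate 3 at 20 weeks combines a macrophage mean of 11.37 with an Ereg level of 6.15, and isolated replicate 3 combines 11.41 with 7.63. Egf is highest on grouped replicate 4 at 20 weeks (8.39), where the muscle mean is 13.93.

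Egf encodes epidermal growth factor, which binds the EGF receptor alone. At 15 weeks it read 7.96, 7.73, 8.14 and 7.92 in grouped and 8.1, 8.37, 8.21 and 8.28 in isolated arrays (log2). Isolated levels lay higher except that isolated replicate 1 lay below grouped replicate 3. The difference was 0.3 (SE 0.09, 1.24-fold) and did not pass (limma, adjusted p = 0.362). RNA quality, read as the 3' signal of the Gapdh controls less their 5' signal, was -0.06 ± 0.02 (SD, n = 4) in grouped and -0.01 ± 0.02 in isolated arrays at 15 weeks. The same measure of the actin controls was 0.26 ± 0.03 and 0.28 ± 0.03. With the Gapdh measure as a covariate the Egf difference was 0.22 (SE 0.15) and did not pass. That measure went with housing at this age, so the fit tells them apart poorly. At 20 weeks the grouped arrays ranged widely, at 7.55, 7.74, 8.15 and 8.39, and the isolated arrays were close together, at 7.74, 7.73, 7.88 and 7.82. The groups overlapped and the difference was -0.17 (SE 0.16, adjusted p = 0.778), or -0.02 without grouped replicate 4 and -0.30 without grouped replicate 1. The change of the housing difference between ages was -0.47 (SE 0.2, adjusted p = 0.335).

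Muscle genes were among those most like Egf within groups. The genes whose values, centred within each group, were most like those of Egf were Nhlrc1 (Pearson r = 0.96 over 16 arrays), Mybph (0.92), which encodes a myosin binding protein of skeletal muscle, and Stac3 (0.91), which acts in muscle contraction. The skeletal muscle list of 12 measured genes had means of 13.32, 13.68, 13.85 and 13.93 in the grouped arrays at 20 weeks, in the order of their Egf levels. In isolated arrays of that age it was 12.6, 13.29, 13.46 and 13.31. At 15 weeks it was 13.64, 13.3, 13.54 and 13.66 in grouped arrays and 13.43, 13.82, 13.56 and 13.92 in isolated ones. In these 3 groups the order of the means was not that of the Egf levels. Of the 12 muscle genes, 11 had a positive housing difference at 15 weeks (median 0.04). At 20 weeks all 12 had a negative one (median -0.46), and none passed at either age. Salivary gland, a site of high Egf expression in mice, was checked by a list of 10 measured genes, whose mean stayed between 7.81 and 8.05 on all 16 arrays. Of these 10 genes, 9 had a positive housing difference at 15 weeks (median 0.11) and 8 a negative one at 20 weeks (median -0.08), none of which passed. The part of muscle and salivary gland in the Egf values was not tested.

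Among the remaining ligands, Btc, which encodes betacellulin, had 1 of 2 probe sets with separate groups at 20 weeks. Probe set 2 read 6.52, 6.59, 6.44 and 6.62 in grouped and 6.38, 6.37, 6.14 and 6.41 in isolated arrays. Every isolated array lay below every grouped one (-0.22, SE 0.07, adjusted p = 0.545), at a level not shown to exceed background. Btc probe set 1 had overlapping groups (-0.13, SE 0.09, adjusted p = 0.693). Tgfa, which encodes transforming growth factor alpha, differed by 0.1 (SE 0.08, adjusted p = 0.729) at 20 weeks in its brightest probe set. Hbegf, which encodes heparin-binding EGF-like growth factor, differed by 0.12 in probe set 1 (SE 0.17, adjusted p = 0.858), and by -0.05 without isolated replicate 1, which read 10.19 against 9.32 to 9.74 in the other isolated arrays. At 15 weeks Tgfa probe set 2 differed by -0.16 (SE 0.08, adjusted p = 0.526), and by 0.002 (SE 0.11) with the Gapdh covariate, which went with housing.

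The receptor genes Erbb2 and Erbb3 did not pass in either housing comparison. Erbb3 at 20 weeks (probe set 1) read 11.2, 11.22, 10.88 and 11.12 in grouped and 10.96, 10.92, 10.43 and 11.06 in isolated arrays (log2). The groups overlapped, with the lowest array of each group being its replicate 3. The difference was -0.26 (SE 0.14, adjusted p = 0.631), against 0.11 (SE 0.08, adjusted p = 0.65) at 15 weeks. Without isolated replicate 3 the value at 20 weeks was -0.13, and without grouped replicate 3 that at 15 weeks was 0.03. Erbb3 probe set 2 did not have that difference at 20 weeks, at -0.0003 (SE 0.06). Erbb2 had the same sign as Erbb3 probe set 1, at -0.17 (SE 0.11, adjusted p = 0.67) at 20 weeks and 0.08 (SE 0.09, adjusted p = 0.745) at 15 weeks. Without the same arrays these were -0.08 and 0.01. Both genes are expressed in epithelium, and all 15 measured luminal markers had negative differences at 20 weeks (median -0.12, none passed). The luminal list mean was 10.81 to 11.07 in grouped arrays and 10.58 to 10.9 in isolated ones at 20 weeks, with replicate 3 again the lowest of each group. The part of epithelial content was not tested.

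Egfr, which encodes the EGF receptor, was read by 7 probe sets that did not all differ in one direction. At 20 weeks 4 had a positive and 3 a negative housing difference, between -0.16 and 0.3 (log2), and at 15 weeks all 7 lay between -0.08 and 0.02. The positive extreme was probe set 2, which read 10.2, 10.31, 10.51 and 9.8 in grouped and 10.27, 10.43, 10.59 and 10.72 in isolated arrays at 20 weeks. The groups overlapped, and grouped replicate 4, the lowest, also had the lowest fibroblast and matrix mean of its group, 11.65 against 12.02 to 12.69. The difference was 0.3 (SE 0.15, adjusted p = 0.62), and 0.16 without grouped replicate 4. The part of fibroblast content in it was not tested. Egfr probe set 1 read 10.28, 10.34, 10.49 and 10.23 in grouped and 10.13, 10.24, 10.4 and 10.24 in isolated arrays. These groups overlapped as well (-0.09, SE 0.08, adjusted p = 0.772). Centred within groups, the other 6 Egfr probe sets correlated with the brightest at r = -0.28 to 0.69 over 16 arrays.

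With housing, 0 of 21 probe sets passed at either age (limma, adjusted p at most 0.05), where 0.0258% of all probe sets passed at 15 weeks and 0.0114% at 20 weeks. At an unadjusted p under 0.05 the numbers were 1 at 15 weeks (Egf) and 2 at 20 weeks (Ereg and Btc probe set 2), where 10.1% and 8.38% of all probe sets reached it. Groups that did not overlap were found for 0 probe sets of the family at 15 weeks and for 2 at 20 weeks, where 5.7% and 4.15% of all probe sets had them. The median difference was 0.01 at 15 weeks and -0.002 at 20 weeks, beside -0.01 and -0.005 over all probe sets. The interaction gave 0 of 21 passes (background 0.00858%) and 5 with an unadjusted p under 0.05 (background 12.6%), which were Ereg, Egf, Erbb3 (-0.38, SE 0.17, adjusted p = 0.374) and Egfr probe sets 2 (0.37, SE 0.17, adjusted p = 0.381) and 7 (0.16, SE 0.07, adjusted p = 0.338).

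**Figure D3:**
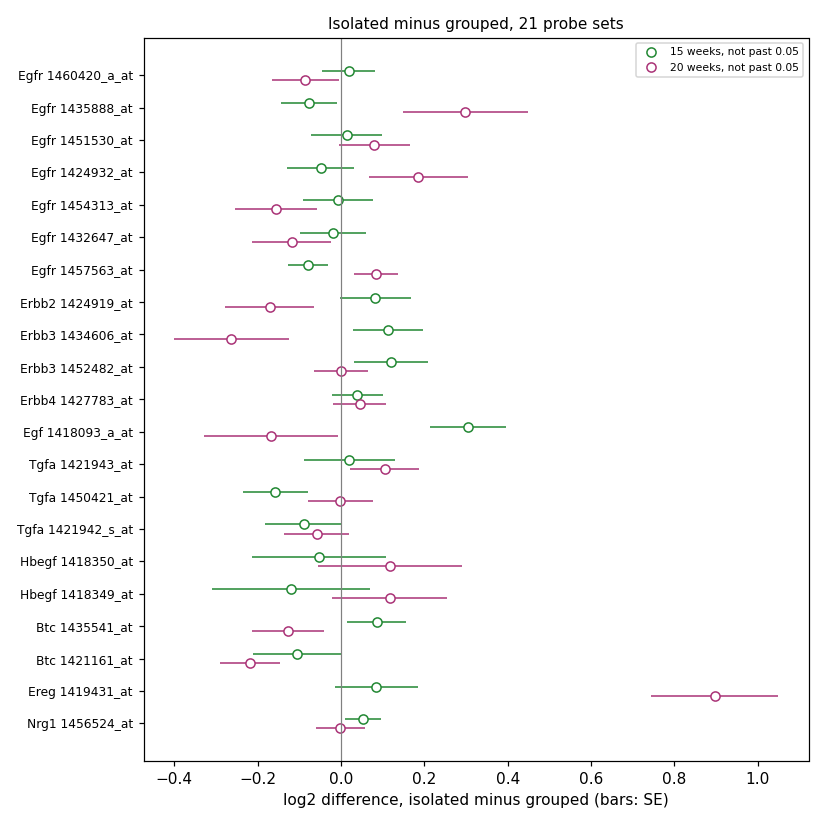
Log2 difference between isolated and grouped arrays for each of the 21 probe sets at 15 and 20 weeks, with its SE; rows of a gene run from its probe set 1 down. No point passes adjusted p 0.05, and Ereg at 20 weeks (0.9) lies farthest from 0.

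Between 15 and 20 weeks several ligand genes rose relative to the array median. Ereg rose 1.44-fold in grouped (log2 0.53, SE 0.12, limma adjusted p = 0.00801) and 2.53-fold in isolated mice (1.34, SE 0.13, adjusted p = 4.9e-05), and in both the ages did not overlap. In grouped mice all 8 arrays lay under the quartile, so neither age was shown to exceed background there, and in isolated mice all 4 arrays at 15 weeks and 1 at 20 weeks did. On the deposited values the Ereg differences were 0.75 and 1.56, where the 9 Y-linked probe sets differed between ages by -0.09 to 0.53. Relative to the array median, 1 of 3 Y-linked genes was called higher and 1 lower in grouped mice. In isolated mice 1 was called higher and 2 lower, so age calls were also made on genes that female mice lack. What these probe sets read was not tested. Tgfa, whose promoter is printed above, rose by 0.54 (SE 0.12, adjusted p = 0.00649) and 0.63 (SE 0.06, adjusted p = 7.69e-05) in its brightest probe set, from 9.19 to 9.79 in grouped arrays and 9.51 to 9.61 in isolated ones at 15 weeks to 10.11 to 10.38 and 10.32 to 10.53 at 20 weeks. Tgfa probe set 2 rose in isolated mice (0.23, SE 0.07, adjusted p = 0.0242) and had 0.07 (SE 0.08, adjusted p = 0.471) in grouped mice (0.30 on the deposited values, adjusted p = 0.0083), and probe set 3 had 0.02 and 0.04 without passing. The call of Tgfa probe set 2 did not hold in 5 of 8 fits that left out an array (0.18 to 0.28).

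Hbegf rose in both housings in probe set 2, by 0.68 (SE 0.19, adjusted p = 0.0179) and 0.91 (SE 0.14, adjusted p = 0.000624). Probe set 1 rose in isolated mice (0.58, SE 0.16, adjusted p = 0.0119) and had 0.41 (SE 0.18, adjusted p = 0.087) in grouped mice, where arrays at 15 weeks ranged from 8.48 to 9.45. Without grouped replicate 4 at 15 weeks that value was 0.57 (adjusted p = 0.0155), and without grouped replicate 3 at 20 weeks 0.51 (adjusted p = 0.0455). Without grouped replicate 3 at 15 weeks it was 0.26 (adjusted p = 0.197), and on the deposited values 0.64 (adjusted p = 0.0117). The 2 Hbegf probe sets followed each other closely within groups (r = 0.95 over 16 arrays).

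Other ligand genes fell. Egf fell 1.6-fold in isolated mice (-0.67, SE 0.07, adjusted p = 6.13e-05), whose arrays went from 8.1 to 8.37 down to 7.73 to 7.88 without overlap. In grouped mice it differed by -0.20 (SE 0.17, adjusted p = 0.375), or 0.02 on the deposited values. Of the 12 muscle genes 11 were lower with age in isolated mice (median -0.71), against 1 higher and 0 lower in grouped mice (median -0.15). Of the 10 salivary genes 5 were lower and 1 higher in isolated mice, and 4 lower and 1 higher in grouped mice, where 24.2% of all genes fell and 26.2% rose in isolated and 18.5% fell and 18.8% rose in grouped mice. The part of these tissues in the fall of Egf was not tested. Btc probe set 1 fell relative to the array median in isolated mice (-0.35, SE 0.08, adjusted p = 0.00576, but -0.12 and not called on the deposited values) and had -0.13 (SE 0.07, adjusted p = 0.167) in grouped mice. Nrg1 was called lower in both (-0.24, SE 0.05, adjusted p = 0.00433, and -0.29, SE 0.06, adjusted p = 0.00276), but its deposited levels were alike, at 5.55 to 5.65 and 5.55 to 5.66 in grouped arrays at 15 and 20 weeks, and without centring the differences were -0.01 and -0.07 and did not pass, at a level not shown to exceed background.

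Of the receptors, Erbb2 and Erbb3 rose in grouped mice. Erbb2 read 9.49, 9.31, 9.19 and 9.59 at 15 weeks and 10.15, 10.13, 9.82 and 10.07 at 20 weeks, without overlap. It rose by 0.43 relative to the array median (SE 0.1, limma adjusted p = 0.00919), and had 0.17 (SE 0.09, adjusted p = 0.134) in isolated mice, or 0.26 (adjusted p = 0.00467) without isolated replicate 3 at 20 weeks. On the deposited values Erbb2 in isolated mice had 0.40 and passed (adjusted p = 0.00251), beside 0.65 in grouped mice. Erbb3 probe set 1 rose by 0.37 (SE 0.1, adjusted p = 0.0189) in grouped mice and had -0.01 (SE 0.12, adjusted p = 0.928) in isolated mice (0.13 without replicate 3 at 20 weeks), while probe set 2 had 0.06 (SE 0.09, adjusted p = 0.631) and -0.07 (SE 0.06, adjusted p = 0.364). On the deposited values Erbb3 in isolated mice had 0.21 and 0.16 in its probe sets 1 and 2, of which the latter passed (adjusted p = 0.0386), and probe set 2 in grouped mice had 0.28 and passed (adjusted p = 0.0224). The rise of Erbb3 probe set 1 in grouped mice missed the threshold without grouped replicate 1 or 2 at 20 weeks (adjusted p = 0.0542 and 0.0585). Of the 15 luminal markers, 5 passed higher and 2 lower in grouped mice relative to the array median (median 0.27), and 4 higher and 6 lower in isolated mice (median 0.05). The deposited luminal mean, which holds the shift of the arrays, was 10.54 to 10.74 at 15 weeks and 10.81 to 11.07 at 20 weeks in grouped arrays, and 10.67 to 10.77 and 10.58 to 10.9 in isolated ones. The part of epithelial content in these rises was not tested. The tests of the difference between housings, given above for Erbb3 and at -0.25 (SE 0.14, adjusted p = 0.48) for Erbb2, did not pass.

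The Egfr probe sets again differed among themselves with age. Probe set 6 rose in grouped (0.4, SE 0.06, adjusted p = 0.00148) and isolated mice (0.3, SE 0.1, adjusted p = 0.029), and probe set 5 rose in grouped mice (0.29, SE 0.09, adjusted p = 0.025) and had 0.13 (SE 0.09, adjusted p = 0.211) in isolated mice. The first missed the threshold in isolated mice without replicate 1 or 2 at 15 weeks (adjusted p = 0.0696 and 0.0853), and the second in grouped mice in 4 of 8 fits that left out an array. Probe set 1 fell relative to the array median in isolated mice (-0.25, SE 0.07, adjusted p = 0.0114) and had -0.15 (SE 0.07, adjusted p = 0.122) in grouped mice. On the deposited values these were -0.03 and 0.08 and neither passed, and without grouped replicate 3 at 20 weeks the value in grouped mice passed (-0.19, adjusted p = 0.0445). Probe set 2 had -0.22 (SE 0.13, adjusted p = 0.197) in grouped mice, or 0.005 on the deposited values. In isolated mice it had 0.15 (SE 0.09, adjusted p = 0.17), or 0.22 (adjusted p = 0.0282) without replicate 1 and 0.09 (adjusted p = 0.384) without replicate 4 at 20 weeks. On the deposited values it was 0.38 and passed (adjusted p = 0.00523), as did probe set 5 in isolated mice (0.36, adjusted p = 0.00599). Probe sets 5 and 6 read 7.23 to 8.11 and 7.13 to 8.10 over the 16 arrays, where Y-linked probe sets reached 8.03. Which Egfr transcripts each probe set reads was not used here.

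Over the family, 8 of 21 probe sets passed with age in grouped mice, 7 higher and 1 lower, where 38.2% of all probe sets passed (19.8% higher, 18.3% lower). In 6 the ages did not overlap, where 36% of all did not. In isolated mice 10 passed, 6 higher and 4 lower, where 51.1% of all did (27.8% higher, 23.2% lower). In 9 the ages did not overlap, where 48% of all did not. The shares of the family, 38.1% and 47.6%, were close to these backgrounds. Without centring, 12 were called in grouped mice, all higher, and 15 in isolated mice, 14 higher and 1 lower, where all probe sets split into 19776 higher and 2106 lower and into 20672 higher and 3001 lower. The age comparisons share no arrays with each other, and each shares arrays with both housing comparisons. Erbb4, the receptor of several of these ligands, had group means of 4.57, 4.61, 4.64 and 4.68 (grouped and isolated at 15 weeks, then at 20 weeks) and passed in none of the 5 comparisons.

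**Figure D4:**
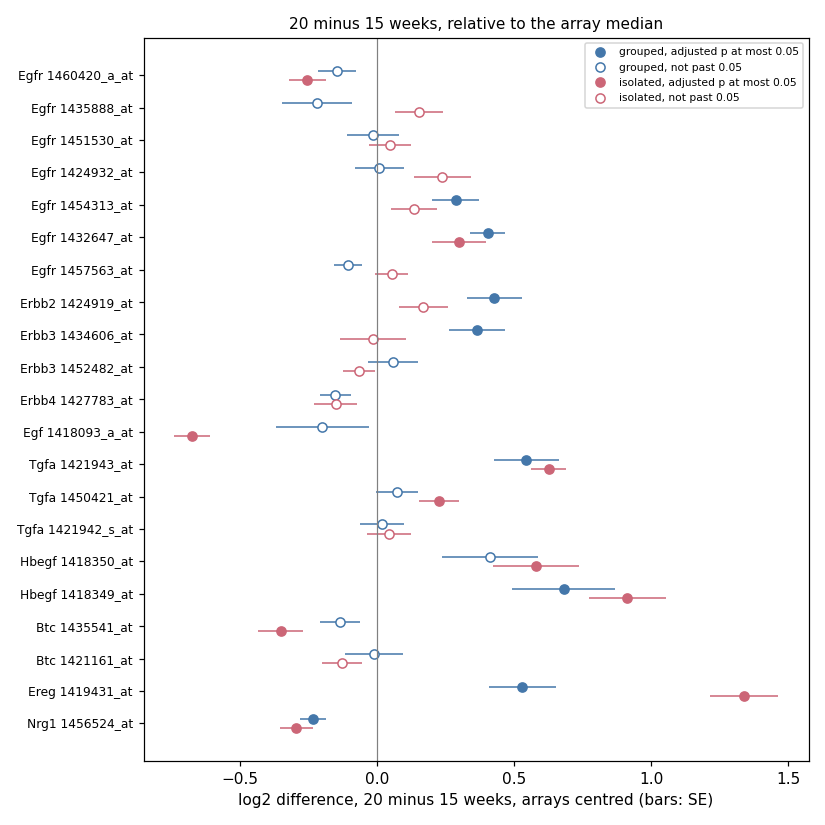
Log2 difference between 20 and 15 weeks, relative to the array median, for each of the 21 probe sets in grouped and isolated mice, with its SE; filled points have an adjusted p of at most 0.05. Ereg, Hbegf and Tgfa probe set 1 lie to the right in both housings, and Egf in isolated mice lies farthest to the left (-0.67).

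Other genes of the pathway were taken from 5 lists with 69 genes, of which 62 were measured, each by its brightest probe set. In housing at 15 weeks and at 20 weeks 0 of 62 passed (limma). At an unadjusted p under 0.05 there were 4 and 10 of 62, where 10.1% and 8.38% of all probe sets reached it. These shares are over every probe set and not over 1 per gene, so they are not a like background for the 62. The age counts of the lists stand beside 18.8% of all genes that rose and 18.5% that fell in grouped mice, and 26.2% and 24.2% in isolated mice. The 4 other ligand genes measured were Epgn, Nrg2, Nrg3 and Nrg4. At 20 weeks Nrg4, which encodes an ErbB4 ligand released by fat tissue, read 8.79, 8.6, 8.84 and 8.53 in grouped and 7.5, 7.94, 8.15 and 8.69 in isolated arrays. The groups overlapped through isolated replicate 4 (-0.62, SE 0.21, adjusted p = 0.552), the array with the highest adipocyte list mean of its group, 11.96 against 10.67 to 11.23. Nrg4 fell with age in grouped (-1.26, SE 0.2, adjusted p = 0.00131) and isolated mice (-1.71, SE 0.19, adjusted p = 0.000125), while Nrg2 rose in both (0.57 and 0.46, adjusted p = 0.000151 and 9.85e-05) and Nrg3 in grouped mice (0.41, adjusted p = 0.00133). Nrg3 read 5.50 to 5.71 and 6.17 to 6.31 in grouped arrays at 15 and 20 weeks, under the quartile on each, and was not shown to exceed background. All 9 adipocyte markers were lower with age in both housings, and their mean went from 12.32 to 12.94 down to 11.84 to 12.16 in grouped and from 12.4 to 12.63 down to 10.67 to 11.96 in isolated arrays. The part of fat tissue in the Nrg4 values was not tested.

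Of 9 genes for ligand processing, which include the shedding proteases, the smallest p with housing at 20 weeks was that of Adam12, a metalloprotease that can release Hbegf. It read 9.66, 9.78, 9.78 and 9.77 in grouped and 10.37, 10.14, 10.17 and 10.35 in isolated arrays. Every isolated array lay above every grouped array (0.51, SE 0.07), yet it did not pass (adjusted p = 0.143). Of all probe sets, 4.15% had groups that did not overlap in this comparison. With age, Adam12 fell in grouped mice (-0.39, SE 0.11, adjusted p = 0.0173) and rose in isolated mice (0.34, SE 0.08, adjusted p = 0.00721), and the test of that difference did not pass (0.74, SE 0.14, adjusted p = 0.133). In all, 3 of the 9 rose and 1 fell with age in grouped mice, and 6 rose and 1 fell in isolated mice (all genes: 18.8% and 18.5%, then 26.2% and 24.2%). Those that rose included Adam10 (0.33 and 0.41) and, in isolated mice, Adam17 (0.36, adjusted p = 0.00249), the main protease of Tgfa and Ereg release.

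Of 13 genes that restrain or turn over the receptors, 5 rose and 1 fell with age in grouped and 8 rose and 0 fell in isolated mice, where of all genes 18.8% and 18.5%, and 26.2% and 24.2%, did. Errfi1, an inhibitor of the receptor kinase that is itself induced by the signal, read 10.53, 10.56, 10.42 and 10.36 in grouped and 10.63, 10.68, 10.72 and 10.64 in isolated arrays at 20 weeks. Every isolated array lay above every grouped one (0.2, SE 0.06, adjusted p = 0.541), as the groups of 4.15% of all probe sets were apart. Errfi1 was named for the smallest p of its list in that comparison. It rose with age in isolated mice (0.62, SE 0.06, adjusted p = 6.13e-05) and had 0.21 (SE 0.1, adjusted p = 0.11) in grouped mice. The ubiquitin ligase genes Cbl and Cblb rose in both (Cbl 0.41 and 0.57, Cblb 0.40 and 0.55).

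Of 17 feedback and target genes of ERK signalling, 5 rose and 1 fell with age in grouped and 9 rose and 3 fell in isolated mice, beside the same shares of all genes. With housing at 20 weeks, the transcription factor gene Etv5 (0.32, SE 0.08, adjusted p = 0.45) and the ERK phosphatase gene Dusp6 (0.22, SE 0.06, adjusted p = 0.48) had the smallest p. Dusp6 read 11.25, 11.26, 11.19 and 11.14 in grouped and 11.46, 11.44, 11.35 and 11.46 in isolated arrays, without overlap. Etv5 read 8.31, 8.32, 8.47 and 8.57 in grouped and 8.83, 8.69, 8.59 and 8.85 in isolated arrays, also without overlap. The groups of 4.15% of all probe sets did not overlap either, and how many of the 62 listed genes were apart was not counted. With age Etv5 (0.39, adjusted p = 0.00168) and Dusp6 (0.35, adjusted p = 0.000726) rose in isolated mice, and in grouped mice had 0.15 and 0.12 without passing. Spry1 fell in both housings (-0.21 in each, adjusted p = 0.0345 in grouped and 0.0358 in isolated mice). Dusp4 (-0.60, adjusted p = 0.0187) and Spry2 (-0.17, adjusted p = 0.0392) fell in isolated mice. With housing at 15 weeks Dusp4 had the smallest p of this list (0.49, SE 0.14, adjusted p = 0.36). At 20 weeks its difference was -0.12 (SE 0.16, adjusted p = 0.841). Of 19 adaptor and relay genes 4 rose and 3 fell in grouped and 4 rose and 4 fell in isolated mice, with Pik3r1, a regulatory subunit of PI3K, lower in both (-0.83 and -0.72, adjusted p = 0.000619 and 0.00024) and the adaptor gene Gab1 higher in both (0.61 and 0.48, adjusted p = 0.00515 and 0.00784).

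The genes most like each family member within groups, by Pearson r of values centred in each group over 16 arrays, give a description of these arrays alone. For Tgfa they were Aspm (0.95), Stil (0.94) and Ccna2 (0.94), which act in cell division. For Ereg they were Pou3f1 (0.89), Atg9b (0.87) and 4930523C07Rik (0.85). Erbb2 was most like Fam83h (0.97) and Erbb3 like Gtf3c5 (0.96), Cdk9 (0.96) and Celsr2 (0.95). Hbegf was most like Rpa2 (0.99), Prkg2 (0.98) and Emp2 (0.97), Egfr like Tnfaip8l2 (0.92) and Btc like Iqce (0.92). Each was picked as the highest over all genes measured.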

How the data were processed

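Total RNA of mammary gland was read on 16 Affymetrix mouse expression arrays, and the deposited table holds log2 values that the authors made with RMA in the affy package, per the submitters' processing notes; versions are not given in the sources used here. Of 45101 probe sets, 64 controls, 932 with several symbols and 9160 with no listed symbol were left out, and 34945 were tested. Each comparison was fitted over all of them with limma 3.58.1 under R 4.3.3 (eBayes, prior variance following intensity) and adjusted by Benjamini-Hochberg at 0.05. Housing and age fits used the 8 arrays concerned, and the interaction all 16. Age fits were centred on each array's median. Tested on simulated data, the fit for housing at 15 weeks recovered 41 of 67 shifts of 0.5 and 62 of 67 of 1 (log2). The simulated noise was normal, independent between probe sets and of a spread averaged over the 4 groups. Real arrays deviate in many probe sets together, so this checks the code and does not measure the power of these comparisons.

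The number of arrays limits the precision, and no 2 arrays of a group were alike (smallest SD of their difference 0.11). The genes and lists were chosen with earlier results of these data known. All members were named. Of the pathway lists, genes that passed or had the smallest p in their list were eligible, and not every gene that passed is named. Alternatives were another normalization, a filter on dim probe sets, 1 probe set per gene, no trend, a replicate block, all arrays in 1 fit, an RNA quality covariate, no centring and each array left out. Listed genes beyond the 62 measured were not analysed here.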

Additional observations from a re-analysis of the deposited data

Results flagged for a closer look

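Of 84 sets of 4 arrays (21 probe sets in 4 groups), 4 had 1 array whose distance from the others exceeded the critical value of Dixon's test, and chance alone marks about 1 in 20. Tgfa probe set 1 read 10.11 in grouped replicate 3 at 20 weeks against 10.38 in the other 3 arrays. Tgfa probe set 3 read 8.37 in grouped replicate 4 at 20 weeks against 8.59 to 8.60. Btc probe set 2, not shown to exceed background, read 6.14 in isolated replicate 3 at 20 weeks against 6.37 to 6.41. Egfr probe set 7, also dim, read 6.04 in isolated replicate 1 at 15 weeks against 5.98 to 5.99.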

How the results depend on the processing

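The count over all probe sets with housing at 15 weeks was 9, and became 0 with quantile normalization, 0 with the replicate block, 3 with all 16 arrays in 1 fit and 2 with the Gapdh covariate. At 20 weeks it was 4, and became 2 with 1 probe set per gene, 13 with the block and 9 with all 16 arrays, where 1 probe set of the family passed (Ereg). With an array left out these counts ran from 0 to 49 (49 without grouped replicate 3) and from 0 to 175 (175 without isolated replicate 4). The interaction count of 3 became 1 with the filter on dim probe sets and 186 with the block, and ran from 0 to 182 with an array left out (182 without isolated replicate 4 and 158 without grouped replicate 3, both at 20 weeks). None of these fits with an array left out called a probe set of the family. In grouped mice the age count of 13342 became 7503 with the filter, 6804 with 1 probe set per gene and 21882 without centring, and that of the family, 8, became 4 and 5 under the first and second of these. In isolated mice 17840 became 11176 and 9156, and the family's 10 became 6 with the filter. With an array left out the family's counts were 6 to 10 and 8 to 12. The filter and the use of 1 probe set per gene test fewer probe sets by construction, also within the family. Among those the filter left out were Ereg, Nrg1 and Egfr probe sets 5 and 6, all called in grouped mice. In isolated mice they included the called Egf, Ereg, Nrg1 and Egfr probe set 6. In both housings the called probe sets that the filter left out match the fall of the family's count with the filter. The cause of the other changes was not tested.

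Some differences changed sign. Without centring, in grouped mice, Egfr had 0.078 (probe set 1) and 0.0046 (probe set 2), Egf 0.024 and Btc 0.088 (probe set 1), and in isolated mice Erbb3 had 0.21 (probe set 1) and 0.16 (probe set 2). With the Gapdh covariate Tgfa probe set 2 with housing at 15 weeks was 0.0022 (SE 0.11). With an array left out, Ereg with housing at 15 weeks ran from -0.0035 to 0.18, Hbegf probe set 1 with housing at 20 weeks from -0.046 to 0.25, Erbb3 probe set 2 with age in grouped mice from -0.0047 to 0.12 and Erbb3 probe set 1 with age in isolated mice from -0.081 to 0.13. Arrays with the same replicate number did not all deviate together (correlations of -0.13 to 0.35 with housing at 15 weeks and -0.13 to 0.48 at 20 weeks, and -0.20 to 0.24 and -0.18 to 0.37 with age in grouped and isolated mice). In no comparison did all 4 arrays correlate best with their own number, and the numbers were not taken to pair the arrays; whether some of them share an origin was not tested. With the block the Ereg difference at 20 weeks had an adjusted p of 0.13 (limma).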
